A study of Mus musculus with 4 samples.

Results

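The proteasome subunit genes of mouse natural killer (NK) cells are described here. They were measured by RNA sequencing in control mice and in mice with deletions in Gabpb1 and Gabpb2, which encode subunits of GABP. Members were taken by name: gene symbols made of Psma, Psmb, Psmc, Psmd or Psme and a number, which matched 45 rows and 43 symbols among 37310 genes. The 2 symbols with a second row were Psmb9 and Psmd14. NK cells (CD3e-NK1.1+CD49b+) were sorted from bone marrow, and the donors were C57BL/6 animals, 6 to 8 weeks old. The Ctrl group held 2 libraries from littermate controls; the sources used here do not give their alleles. The dKO group held 2 libraries from Gabpb1l-/-Gabpb2-/- mice, in which Gabpb2 and the long form of Gabpb1 are deleted. Which cells of the mouse carry the deletion, and whether animals were pooled, is not given either. The series calls the libraries biological replicates.

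The proteasome is the protease that breaks down ubiquitin-tagged proteins. Its 20S core is a barrel of alpha rings (Psma genes), which gate the entry, and beta rings (Psmb genes), which hold the catalytic sites of Psmb5, Psmb6 and Psmb7. In immune cells and after interferon these 3 subunits are replaced by Psmb8, Psmb9 and Psmb10 to form the immunoproteasome, which cuts peptides suited to MHC class I. The 19S cap binds, unfolds and feeds the substrate. It has a base of ATPases (Psmc genes) with scaffold and ubiquitin-binding subunits, and a lid that holds the deubiquitinase Psmd14. Activators of the Psme family open the core without the cap. GABP is an Ets-family factor in which Gabpa binds DNA at GGAA sites and Gabpb1 or Gabpb2 carry the activating part.

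Because the deleted subunits belong to an Ets-family factor, the promoters of the members are shown first. Windows of 300 bases, 250 before and 50 after the RefSeq start on GRCm38.p6, were found for 36 of 43 members. The Ets motif CCGGAAG, read on both strands, lay in the window of 12 of the 36 (33.3%). It lay in 19.7% of 9175 genes that were tested here and have a window, and in 9.93% of all 27025 genes with one. By role, 7 of the 12 belong to the lid or are base ATPases (Psmc1, Psmc2, Psmc6, Psmd6, Psmd11, Psmd12, Psmd13), and 2 are activators (Psme3 and Psme4). Psmd2, Psmd4 and the alpha subunit Psma6 complete them, and no beta subunit with a window had the motif. Stretches of 60 bases upstream of the start are printed for 5 of them and for Psmb8. The motif is in capitals (CTTCCGG is the same motif on the other strand). The 5 were picked to span log2 fold changes from -0.32 (Psmd12) to 0.14 (Psma6). Psmd13, the highest of the 12 at 0.29, is not printed because its motif runs across the start. In Psmb8 the capitals mark the GAS motif TTCNNNGAA, the element read by STAT factors after interferon gamma, which 8.73% of the tested genes hold; no Ets motif lay in the window of Psmb8. A match describes letters and shows no binding.
Psmd12, chr11:107479468-107479527, plus strand: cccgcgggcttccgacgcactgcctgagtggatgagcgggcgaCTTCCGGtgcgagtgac
Psmd2, chr16:20651592-20651651, plus strand: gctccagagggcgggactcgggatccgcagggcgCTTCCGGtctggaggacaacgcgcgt
Psme4, chr11:30771696-30771755, plus strand: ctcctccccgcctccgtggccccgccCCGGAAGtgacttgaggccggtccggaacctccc
Psmc1, chr12:100110142-100110201, plus strand: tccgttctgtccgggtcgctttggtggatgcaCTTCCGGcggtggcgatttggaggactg
Psma6, chr12:55398667-55398726, plus strand: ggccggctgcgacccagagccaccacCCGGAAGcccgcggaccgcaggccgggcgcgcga
Psmb8, chr17:34198072-34198131, plus strand: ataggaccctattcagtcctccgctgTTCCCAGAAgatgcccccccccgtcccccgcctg

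Gene counts summed to between 30233870 and 34724516 per library. As a check of the genotype, a count over all of Gabpb1 cannot test the loss of its long form. This count was 1945 and 1727 in Ctrl against 2609 and 2400 in dKO. Gabpa had 2779 and 2683 counts in Ctrl against 3263 and 2973 in dKO. Neither gene was called (edgeR adjusted p = 0.273 for Gabpb1 and 0.578 for Gabpa). The check held for Gabpb2, with 1244 and 1009 counts in Ctrl against 85 and 86 in dKO. The groups also differed in Xist, with 6066 and 6430 counts in Ctrl and 2 and 9 in dKO, so genotype and sex cannot be told apart in any comparison below. NK cell markers were detected in every library, at levels that differed widely (CPM, counts scaled by TMM library size). They ran from Eomes at 42.2 to 54.1 CPM to Il2rb at 3701 to 5157 CPM, with Prf1 at 1189 to 1723 CPM. Markers of T cells, which the sort should exclude, summed over 8 genes to 212.5 and 222.5 CPM for Ctrl against 46.9 and 75.9 CPM for dKO. Those of neutrophils and myeloid precursors summed over 10 genes to 2142 and 2724 CPM for Ctrl against 1321 and 2162 CPM for dKO, and no marker gene of these lists was at 0 in all 4 libraries. The 2 called T cell markers, Cd3e and Trac, were lower in dKO. Median log2 fold changes were -0.50 for B cell markers, -0.04 for those of monocytes, macrophages and dendritic cells, -0.15 for erythroid, -0.31 for ILC1 and ILC2 and -0.26 for NK cell markers, with 0 called in each of these lists. The proliferation markers, 6 genes, summed to 559 and 405 CPM for Ctrl against 177 and 312 CPM for dKO. Of these 6, Tyms was called lower (log2 change -2.35, SE 0.36, edgeR adjusted p = 0.0379), all had a negative log2 fold change, and the median was -0.99. The part of these other cells and of dividing cells in the values of the proteasome genes was not tested. In sorted bulk cells, less RNA per cell and fewer cells of a type cannot be told apart.

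Nearly all of the standard proteasome was transcribed in these cells, at levels that differed widely between subunits. The tissue-restricted forms were at or near 0. Psma8, the alpha subunit of the testis, had 15 counts in Ctrl 2 and in dKO 1 and 0 in the other libraries, and Psmb11, the subunit of thymic epithelium, had 1 count in dKO 1 and 0 in the other libraries. All members together made up 0.848% and 0.774% of transcripts in the Ctrl libraries and 0.743% and 0.751% in those of dKO, as a share of TPM (a unit that corrects for gene length and sums to the same total in each library). Both dKO libraries were below both Ctrl libraries in this share, and Ctrl 2 lay nearer to them than to Ctrl 1. Measures of the libraries moved with this share. Ctrl 1 and Ctrl 2 had 15921 and 18206 genes with a count, dKO 1 and dKO 2 had 19450 and 19220, and reads assigned to no gene made up 20.5% and 23.7% in Ctrl and 26.0% and 26.5% in dKO. Their part in the share was not tested.

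**Figure D1:**
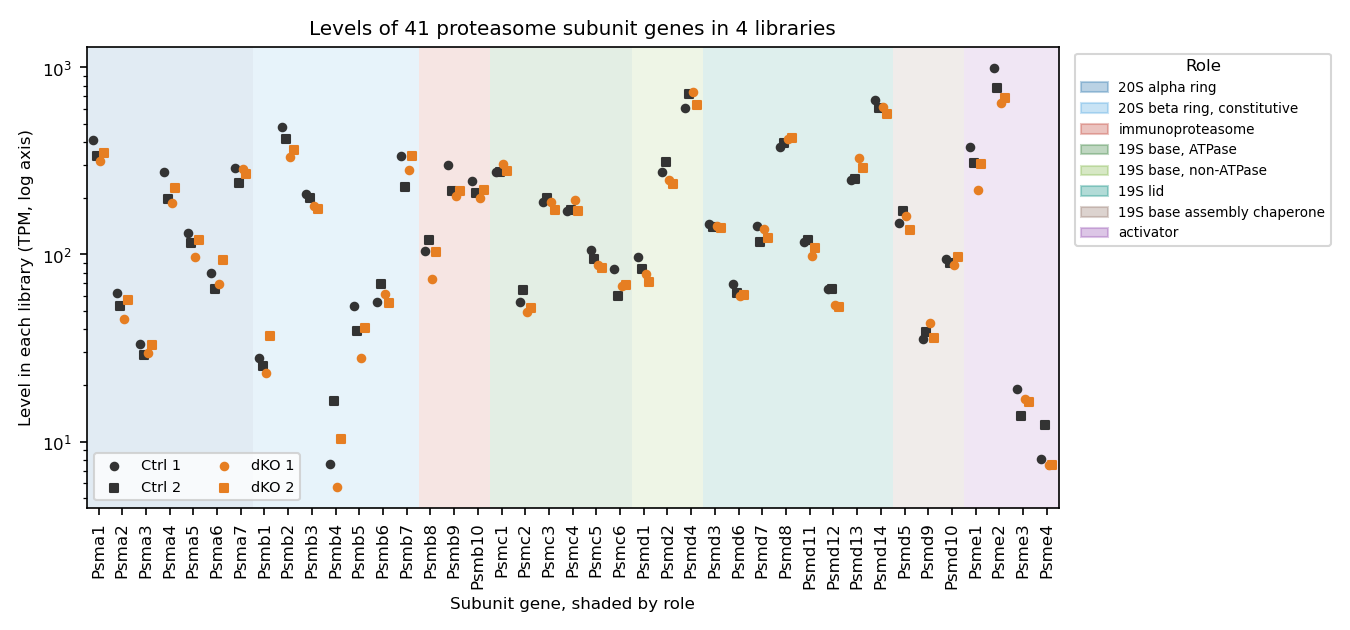
Levels of 41 subunit genes as TPM on a log axis, one point per library (circles replicate 1, squares replicate 2, black Ctrl, orange dKO), shaded by role. Psme2, Psmd4 and Psmd14 stand highest and Psmb4 and Psme4 lowest, and apart from Psmb4 the 4 libraries of a gene lie close together against the distance between genes.

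The alpha ring genes ranged from a mean of 31.2 TPM for Psma3 to 353.5 TPM for Psma1, although the ring holds 1 copy of each protein. Among the constitutive beta subunits, Psmb2 had 479.7, 413.5, 333.3 and 359.95 TPM in Ctrl 1, Ctrl 2, dKO 1 and dKO 2. The caspase-like catalytic subunit gene Psmb6 was at 55.4, 69.8, 61.4 and 55.02 TPM in that order. The chymotrypsin-like one, Psmb5, was at 53.2, 39.2, 28.1 and 40.3 TPM, so that both stood well below the trypsin-like one, Psmb7, with 337.6, 230.5, 283.5 and 334.4 TPM. Psmb4 was listed lowest of the core, at 7.54, 16.4, 5.73 and 10.3 TPM. The values of Psmb4 depend on how reads were counted. Its whole-number count was 3.94 to 10.8 times its RSEM expected count, against a median of 2.05 to 2.07 over genes in each library, so its level is uncertain.

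In the cap, base ATPases ran from a mean of 55.3 TPM for Psmc2 to 284 TPM for Psmc1. The cap subunits with the highest means were the ubiquitin receptor Psmd4 (674 TPM), the deubiquitinase Psmd14 (614 TPM) and the lid subunit Psmd8 (401 TPM). The scaffold subunit Psmd1 had 82.7 TPM and its partner Psmd2 had 269 TPM. Chaperones that help to assemble the base were at 152.9 TPM (Psmd5), 38.2 TPM (Psmd9) and 92.3 TPM (Psmd10). The activator Psme2 was the highest of all members, at 994, 774, 645.3 and 682.7 TPM in Ctrl 1, Ctrl 2, dKO 1 and dKO 2. Its partner in the PA28 alpha-beta ring, Psme1, had 377, 310.1, 221.7 and 305.7 TPM. The nuclear activators Psme3 (PA28 gamma) and Psme4 (PA200) were far lower, with means of 16.4 and 8.80 TPM. Psme2 has a near-identical copy, listed as Psme2b-ps, whose whole-number counts (185 to 357 per library) were small beside the 3780 to 6392 of Psme2. In RSEM expected counts the share of the copy was larger, with 214 to 358 per library against 1651 to 3010 for Psme2. Of the 43 members, 9 had a transcript of another gene at 95% identity over at least 200 bases, and 12 had an exon that overlaps one of another gene on GRCm38.

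Of the 41 members that passed the filter on low counts, none was called between dKO and Ctrl (quasi-likelihood F test of edgeR, adjusted p under 0.05), against 85 of 13904 genes in all (0.611%), of which 44 were higher in dKO (0.316%) and 41 lower (0.295%). Psmb11 and Psmb9 did not pass the filter, the latter with 0 whole-number counts in both of its rows. At an unadjusted p under 0.05 there was 1 member, against 10.6% of all tested genes. DESeq2 and limma-voom likewise called none, and each gave 1 member at the unadjusted level. A negative log2 fold change was seen in 28 of the 41 and a positive one in 13, with a median of -0.11 beside 0.01 over all tested genes. For 38 of the 41 the 95% interval of the log2 fold change, taken gene by gene, lay within -1 and 1, so that a doubling or halving was outside it; 52.3% of all tested genes had an interval that narrow. The exceptions were Psmb4, Psmb5 and the nearly silent Psma8. With 2 libraries a group, the smallest two-sided p of an exact permutation test is 0.33, and the edgeR test borrows its estimate of spread from all genes.

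**Figure D2:**
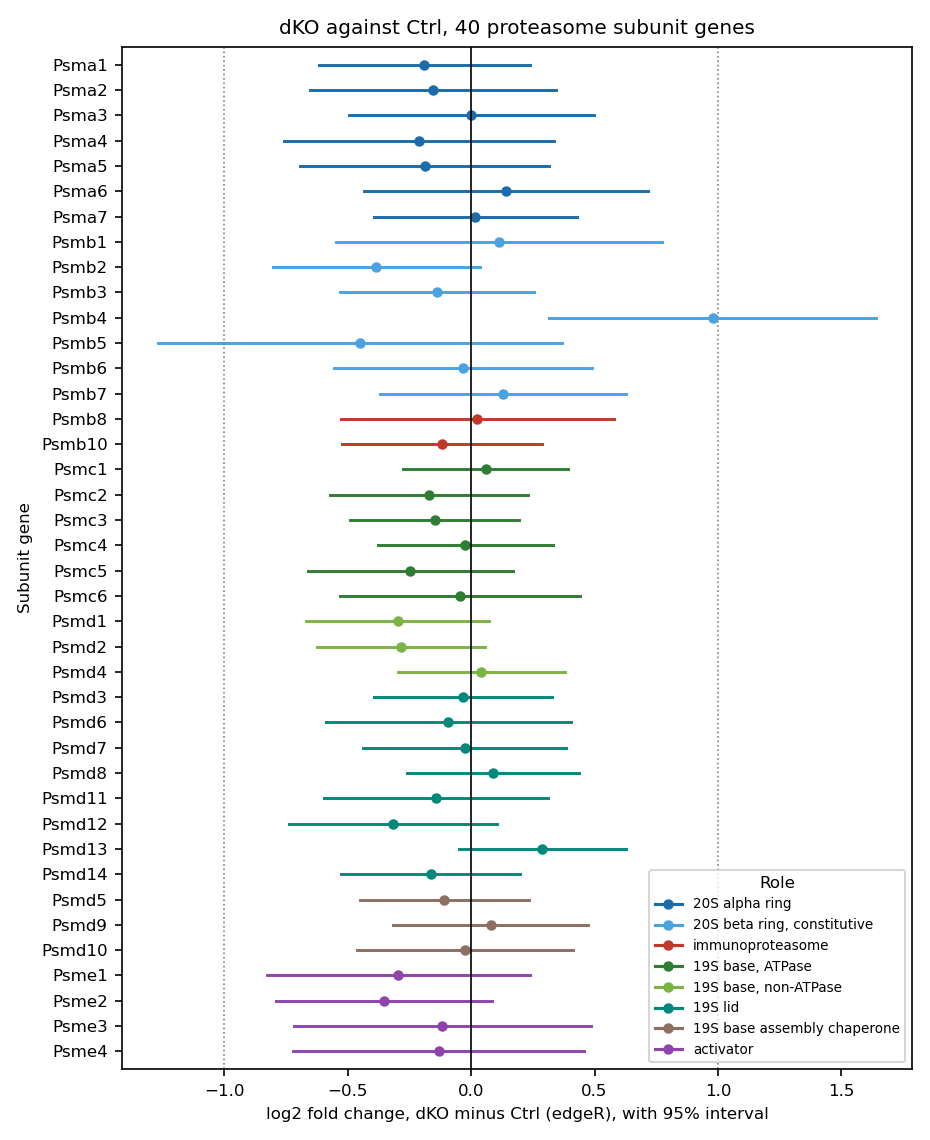
The log2 fold change of dKO against Ctrl for 40 subunit genes (points) with the 95% interval (bars) from edgeR, coloured by role, with dotted lines at -1 and 1. Psma8 is left out for its wide interval, and only Psmb4 and Psmb5 have intervals that pass a dotted line.

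Subunits whose Ctrl and dKO libraries did not overlap in CPM numbered 10 on the lower side (24.4% of tested members, beside 19.9% of all tested genes) and 3 on the higher side (7.32%, beside 21.7%). The lower ones were Psmb2, Psmb3, Psmc2, Psmc3, Psmc5, Psmd1, Psmd2, Psmd5, Psmd12 and Psme2, and the higher ones Psmb4, Psmd9 and Psmd13. In number the lower ones thus lie near the share of all genes.

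In the 20S core, 8 of 14 constitutive subunits had a negative log2 fold change, and the median was -0.09. The alpha ring showed overlap of the groups in all 7 genes, with log2 fold changes between -0.21 (Psma4) and 0.14 (Psma6). Psmb2, which encodes a beta subunit without catalytic activity, had 189.4 and 155 CPM for Ctrl against 117.9 and 146 CPM for dKO. Both dKO values lay under both Ctrl values, by less than the test requires (log2 change -0.38, SE 0.18, edgeR adjusted p = 0.529). Psmb5 had 19.9 and 12.6 CPM for Ctrl against 8.59 and 15.2 CPM for dKO. Its groups overlapped, and its interval reached from -1.27 to 0.37 (log2 change -0.45, SE 0.35, edgeR adjusted p = 0.745).

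Psmb4, a core subunit known to take part in assembly of the barrel, had the lowest p of the members. It was at 7.02 and 5.94 CPM for Ctrl against 11.8 and 13.8 CPM for dKO, with no overlap (log2 change 0.98, SE 0.29, edgeR adjusted p = 0.261). With RSEM expected counts the log2 fold change was 0.17 (SE 0.50, adjusted p = 0.952), and the expected counts of 57 and 50 in Ctrl and 35 and 73 in dKO overlapped. On GRCm38 the gene lies on chromosome 3 from 94884093 to 94886961, at 294.8 kb from Gabpb2, which is deleted in the dKO mice. Psmd4 is nearer to Gabpb2, at 139.2 kb (chromosome 3 from 95032694 to 95042614), and had a log2 fold change of 0.04 (SE 0.15, edgeR adjusted p = 0.959). Within 1 Mb of Gabpb2 none of 57 tested genes, Psmb4 and Psmd4 among them, was called. Of the 57, 6 had an unadjusted edgeR p under 0.05, Psmb4 among them, and 10.6% of all tested genes had such a p. The part of this position, and of the counting, in the Psmb4 value was not tested.

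The cap had 13 of 17 subunits on the negative side, with a median of -0.09. In the base, Psmd1 had 185.5 and 155.4 CPM for Ctrl against 136.2 and 141.2 CPM for dKO (log2 change -0.30, SE 0.16, edgeR adjusted p = 0.591). Psmd2, which holds the base together with Psmd1, had 460.3 and 497.9 CPM for Ctrl against 374.7 and 412.6 CPM for dKO (-0.28, SE 0.15, adjusted p = 0.574). Neither gene's groups overlapped, and neither passed. The lid went both ways. Psmd12, a lid scaffold subunit, had 77.9 and 63.7 CPM for Ctrl against 55.2 and 58.5 CPM for dKO (-0.32, SE 0.18, adjusted p = 0.624). Psmd13, another lid subunit, had 267 and 242.1 CPM for Ctrl against 304.6 and 316.7 CPM for dKO (0.29, SE 0.15, adjusted p = 0.561). Both of these have the Ets motif in their window. Over the 12 members with the motif the median was -0.11, and over the 22 tested members whose window lacks it, -0.13. Among the base chaperones, Psmd10 had a log2 fold change of -0.03 (SE 0.19).

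Activators were all on the negative side, with a median of -0.21 over 4 genes. Psme2 had 187.7 and 143 CPM for Ctrl against 117.6 and 141.5 CPM for dKO, without overlap but with Ctrl 2 and dKO 2 almost equal (log2 change -0.35, SE 0.19, edgeR adjusted p = 0.589). Psme1, which lies beside Psme2 on chromosome 14 from 55578123 to 55581529, had 77.3 and 61.4 CPM for Ctrl against 45.9 and 67.1 CPM for dKO, and overlapped (-0.30, SE 0.23, adjusted p = 0.742). For Psme3 and Psme4 the log2 fold changes were -0.12 (SE 0.26) and -0.13 (SE 0.26). Leaving out a library gave medians of the 4 activators from -0.43 (without Ctrl 2) to -0.13.

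The immunoproteasome was present in all 4 libraries and none of its subunits was called. Psmb9 needs the RSEM values, since the files hold 2 Psmb9 entries and the whole-number count was 0 for both in every library. RSEM divided its reads unevenly between these entries (1776 and 361 expected counts in dKO 1, 966 and 1352 in dKO 2), so their sum is used here. The sum was 3259 and 2280 expected counts in Ctrl and 2137 and 2318 in dKO, which overlapped (log2 change -0.17, SE 0.20, edgeR adjusted p = 0.845). Psmb10 had 174.2 and 142.6 CPM for Ctrl against 133.4 and 158.4 CPM for dKO (-0.12, SE 0.18, adjusted p = 0.885). Psmb8 had 18.1 and 19.3 CPM for Ctrl against 16.5 and 21.4 CPM for dKO (0.02, SE 0.24, adjusted p = 0.990). Whole-number counting assigned fewer Psmb8 reads than usual, with 0.789 to 0.953 counts per expected count where other genes had about 2. With RSEM counts Psmb8 had a log2 fold change of -0.15 (SE 0.22, adjusted p = 0.894). The 3 subunits together thus had a median of -0.15 with RSEM counts.

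**Figure D3:**
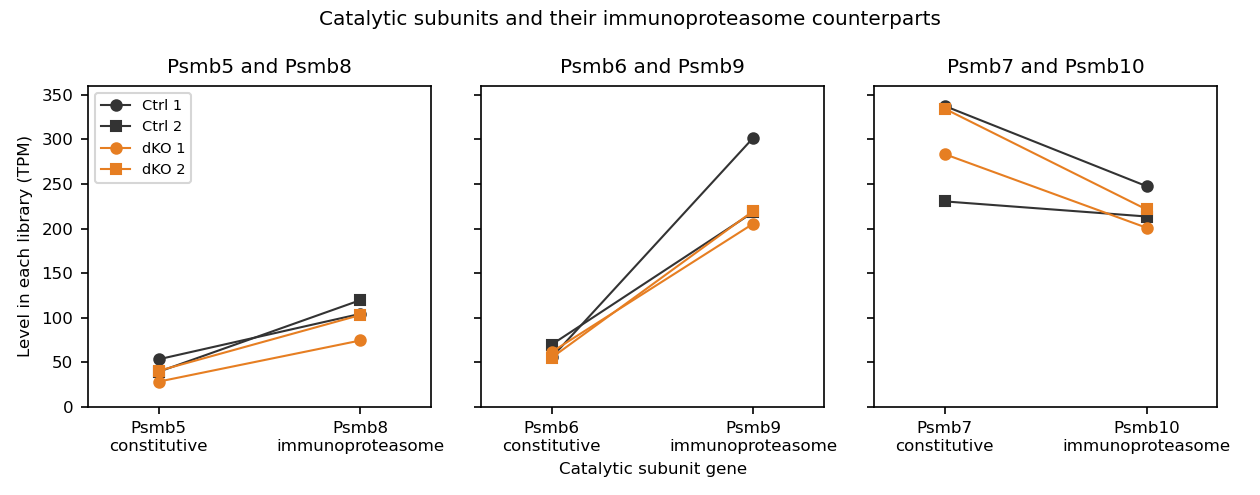
TPM of each constitutive catalytic subunit (left of each panel) and of its immunoproteasome counterpart (right), with a line per library (black Ctrl, orange dKO). Psmb8 and Psmb9 stand above their counterparts in all 4 libraries and Psmb10 below its own, with Ctrl and dKO lines mixed.

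In TPM, Psmb8 exceeded Psmb5 by 1.96-fold and 3.05-fold in the Ctrl libraries and by 2.64-fold and 2.55-fold in those of dKO. This ratio depends on the counting: with whole-number counts divided by gene length it was 0.828 and 1.39 for the Ctrl libraries and 1.51 and 1.24 for those of dKO. In TPM again, Psmb9 exceeded Psmb6 by 5.46-fold, 3.13-fold, 3.35-fold and 3.996-fold in the same order. Psmb10 stood at 0.733, 0.926, 0.709 and 0.662 of Psmb7. The first pairs had overlapping groups, and the difference of the mean log2 ratio, dKO minus Ctrl, was 0.09 for Psmb8 to Psmb5 and -0.18 for Psmb9 to Psmb6. The TPM ratio of Psmb10 to Psmb7 was lower in both dKO libraries, with log2 means of -0.28 ± 0.24 in Ctrl and -0.55 ± 0.07 in dKO (SD, n = 2), a difference of -0.27 that is about the size of the spread in Ctrl. With counts divided by gene length this ratio was 0.876 and 1.09 in Ctrl and 0.881 and 0.793 in dKO, and the groups overlapped. Summed over the 6 catalytic subunits, immunoproteasome transcripts made up, in TPM, 59.4% and 61.9% in Ctrl and 56.3% and 55.9% in dKO. The small gap in this share was not tested, since it follows from the subunits already given.

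Most members shared the direction in which libraries of the same group differed. In 31 of the 40 members counted in every library (77.5%), Ctrl 1 was above Ctrl 2 and dKO 2 was above dKO 1, beside 27.4% of 13403 such genes overall. All 7 alpha subunits, all 8 lid subunits and 6 of 7 constitutive beta subunits (Psmb6 excepted) followed this order. In the alpha ring the median difference was 0.37 (Ctrl 1 minus Ctrl 2, log2 CPM) and -0.46 (dKO 1 minus dKO 2), against a median log2 fold change of -0.16 between the groups. Over all tested genes the same medians differed with transcript length, at 0.14 and -0.17 under 1000 bases, 0.05 and -0.04 from 1000 to 2000 bases, 0.00 and 0.00 from 2000 to 3000 bases and -0.07 and 0.08 from 3000 bases. The 13 members under 1000 bases had 0.31 and -0.31, the 18 of 1000 to 2000 bases 0.26 and -0.08, and the 7 of 2000 to 3000 bases 0.17 and -0.13. Of these 7, Psma2, Psmc6 and Psmd3 followed the order, while Psmd2, Psmd5, Psmd9 and Psme3 did not. The 2 longest members went opposite ways, so their medians of -0.15 and 0.12 describe neither. Psmd1 had 0.25 and -0.05 and followed the order, while Psme4 had -0.56 and 0.30. The part of transcript length in the order of the libraries was not tested. Without Ctrl 1 the median log2 fold change of all members was -0.02, and without dKO 1 it was 0.00.

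**Figure D4:**
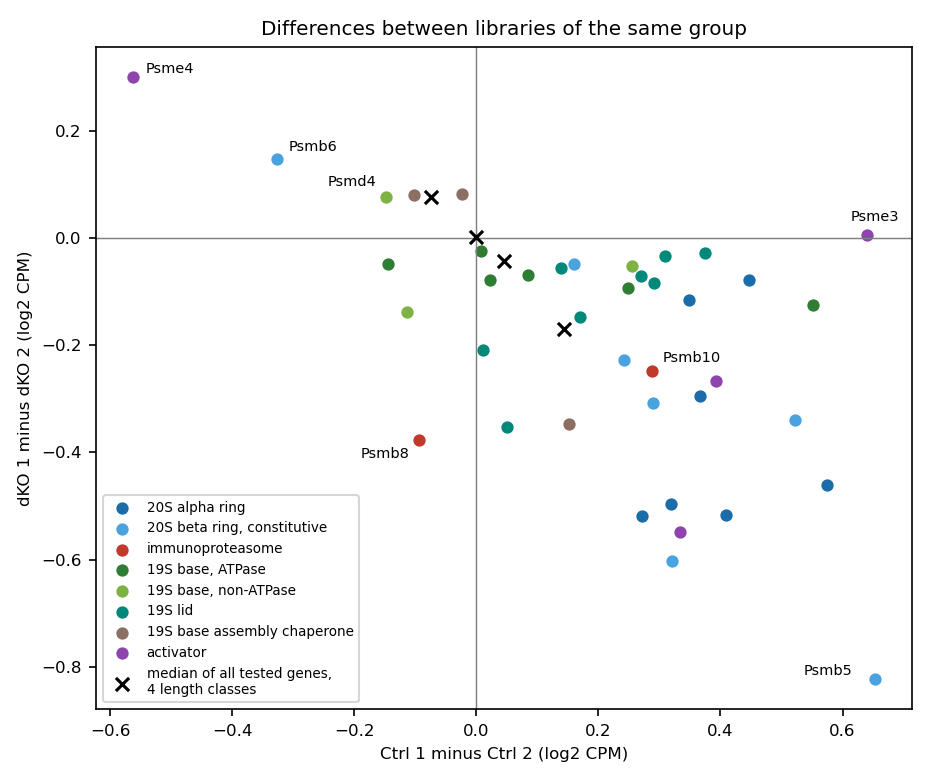
Each point is a subunit gene, with Ctrl 1 minus Ctrl 2 on the horizontal axis and dKO 1 minus dKO 2 on the vertical axis (log2 CPM), coloured by role; crosses are medians of all tested genes in 4 classes of length. Most members lie to the lower right, where Ctrl 1 and dKO 2 are the higher libraries.

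The partners of the proteasome gave few calls. Of 15 tested genes for assembly factors and accessory subunits, 0 were called, with a median log2 fold change of -0.08. Pomp, the chaperone that completes the core and favours the immunoproteasome, was at 77.8 and 61.8 CPM for Ctrl against 76.5 and 94.9 CPM for dKO (0.30, SE 0.20, edgeR adjusted p = 0.679). Adrm1, a ubiquitin receptor of the cap, had 0.00 (SE 0.16). The proteasome-binding deubiquitinase gene Uchl5 had 39.9 and 39.6 CPM for Ctrl against 29.5 and 31.8 CPM for dKO (-0.38, SE 0.19, adjusted p = 0.560). Zfand5, whose protein stimulates the proteasome, had 23.2 and 17.3 CPM for Ctrl against 36.2 and 54.97 CPM for dKO (1.17, SE 0.27, adjusted p = 0.144). Among 7 genes that control proteasome gene transcription 0 were called. Nfe2l1, the factor that raises proteasome genes when the protease is inhibited, had -0.35 (SE 0.16, adjusted p = 0.501), and its small Maf partner gene Mafk had 0.40 (SE 0.19, adjusted p = 0.523).

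Of 18 genes for ubiquitin and its delivery to the proteasome, 1 rose and 0 fell. That gene was Ubqln1, which encodes ubiquilin 1, a shuttle that carries ubiquitinated proteins to the cap. It rose from 23.8 and 21.97 CPM for Ctrl to 50.6 and 62.7 CPM for dKO (log2 change 1.31, SE 0.21, edgeR adjusted p = 0.0386). It was called with DESeq2, limma-voom and RSEM counts too, but missed the threshold without Ctrl 1 (adjusted p = 0.0628), without Ctrl 2 (0.0579) or without dKO 2 (0.135). The list's median was -0.03.

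Class I antigen processing, which uses the peptides the immunoproteasome makes, had 0 calls among 18 genes, 12 of them negative, and a median of -0.23. Tap1, the peptide transporter gene that lies head to head with Psmb9 on chromosome 17, had 362.2 and 404.9 CPM for Ctrl against 306.1 and 335.5 CPM for dKO (-0.26, SE 0.15, edgeR adjusted p = 0.627). The class I folding factors Pdia3 (-0.68, SE 0.19, adjusted p = 0.225) and Canx (-0.49, SE 0.15, adjusted p = 0.275) had the lowest p of the list. Of 14 tested genes of protein folding stress 0 were called, and the median was -0.16.

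Interferon-stimulated genes, a class to which Psmb8, Psmb9, Psmb10, Psme1 and Psme2 are known to belong, were also measured without these 5. Of 34 such genes 4 fell, all 34 had a negative log2 fold change, and the median was -0.71. Usp18, Mx1, Ifit1 and Iigp1 were the 4, with log2 fold changes of -1.54 (SE 0.18), -1.47 (SE 0.20), -1.34 (SE 0.19) and -1.70 (SE 0.28) and edgeR adjusted p between 0.0137 and 0.0465. Usp18 was called whichever library was left out. Mx1 missed the threshold without dKO 1 (adjusted p = 0.0519) or dKO 2 (0.0512), Ifit1 without Ctrl 1 (0.0519), dKO 1 (0.0747) or dKO 2 (0.0634), and Iigp1 without Ctrl 1 (0.101), dKO 1 (0.0652) or dKO 2 (0.108). Side by side, the 5 proteasome members ran from -0.35 to 0.02 in whole-number or, for Psmb9, RSEM counts. With RSEM counts for all 5 they ran from -0.39 (Psme2) to -0.12 (Psmb10). In whole-number counts the 34 other genes ran from -2.50 (Mx2) to -0.10 (Ly6e), so their upper end overlapped the range of the 5 members. Irf8, an interferon regulatory factor, was the only call among 13 interferon signalling genes (-0.98, SE 0.15, edgeR adjusted p = 0.0337; 0.0677 without dKO 1 and 0.0873 without dKO 2). The difference between the proteasome members and the other interferon-stimulated genes was not tested.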

How the data were processed

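Bone marrow NK cells of 2 Ctrl and 2 dKO samples were sequenced as Smart-seq2 libraries, per the labels' protocols. Tools listed, with no role or order, among the submitters' processing notes are HTSeq 0.6.1, RSEM 1.3.0, TopHat2 2.1.1, Trimmomatic 0.36, DESeq2 1.32.0 and FastQC 0.11.5, and the build is mm9. The sources used here do not give the annotation release or the strand setting. Deposited were, for every gene, whole-number counts and, per the file headers, RSEM expected counts, TPM and FPKM. Rows that name no gene (20.5% to 26.5% of all counted reads) were left out.

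Counts were tested with edgeR 4.0.16 (quasi-likelihood, robust) (R 4.3.3; TMM scaling; minimum count of 10), over all 13904 genes that passed, with Benjamini-Hochberg adjustment at 0.05. The procedure was tested on simulated data. SE is the absolute log2 fold change over the square root of F, and intervals use the test's degrees of freedom. The median whole-number count was about 2.05 to 2.07 times the expected count, so whole-number counts may hold both reads of a fragment and then understate counting error. TPM, used to compare genes, entered no test. Expected counts were rounded for an alternative fit. Where 2 Psmb9 rows tied at 0 counts, RSEM values were summed, a choice made after seeing the data. Positions are GENCODE M21 (GRCm38), matched by Ensembl identifier for all members but Psmb9 (by symbol), and are not coordinates of the counting build. Overlapping genes and close copies are uncertain.

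Members and lists were chosen with earlier results of these data known. All members are accounted for. Of each of 15 related lists the called genes (at most 4), or else the 2 with the smallest p, could be named, with a few partners of members (Tap1, Pomp, Adrm1, Nfe2l1). The alternatives were other scalings, filters, DESeq2 1.42.0, limma-voom 3.58.1, RSEM counts, the replicate number as a block and leaving out each library.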

Additional observations from a re-analysis of the deposited data

How the results depend on the processing

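No member was called under any of 12 alternatives, and the smallest adjusted p of any member was 0.121 (Psmb4, DESeq2). Of 489 values of single members under alternatives, 459 moved by less than their standard error and 50 changed sign, in 24 members; 17 members kept their sign throughout. The number of all genes called was 85, against 559 without the count filter, 147 with a minimum count of 50 and 405 with DESeq2, and 73 to 187 when a library was left out (187 without Ctrl replicate 2). Leaving out a library gave medians of the log2 fold change from -0.17 to 0.00 for all members and -0.21 to 0.06 for the constitutive core. For the immunoproteasome, here Psmb8 and Psmb10 without Psmb9, they ran from -0.21 to 0.10, beside -0.05 with all libraries. Leaving out a library gave -0.17 to -0.013 for the cap and -0.43 to -0.13 for the activators. The mean log2 ratios, dKO minus Ctrl, then ran from -0.23 to 0.41 (Psmb8 to Psmb5), -0.58 to 0.22 (Psmb9 to Psmb6) and -0.44 to -0.10 (Psmb10 to Psmb7). The cause of these shifts was not tested. With the replicate number as a block, 100 genes and 0 members were called, and the median of all members was -0.08. Over 13904 genes the numbers gave no sign of pairing, with r = -0.05 between Ctrl 1 minus Ctrl 2 and dKO 1 minus dKO 2. Over the 40 tested members without Psma8 the same r was -0.57. Medians otherwise moved by less than the spread between libraries. The count of Psmb9 could not be tested from whole-number counts, and Psma8 and Psmb11 were too low for a comparison.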
